A study of Mus musculus with 4 samples.

Results

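The miRNAs described here are the mature products of the imprinted miRNA cluster on the distal part of mouse chromosome 12 that runs from miR-379 to miR-410 and partly lies in the noncoding gene Mirg. Members were taken by name, as every listed miRNA that carries 1 of 34 numbers of the cluster with any letter or arm, a rule that uses no measured value. All 34 numbers were found, and they gave 70 mature miRNAs of the 1038 in the table, from 37 hairpins. Both arms of 33 hairpins were listed and 1 arm of the other 4, which makes 33 members from 5p arms and 37 from 3p arms. One of them, miR-3072, lies 4.08 kb beyond miR-410 but still within Mirg.

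Small RNA was sequenced from both sides of the medial prefrontal cortex of male C57BL/6 mice (C57BL/6J in the study's methods), with 2 libraries from control mice and 2 from mice under chronic unpredictable mild stress (CUMS). Mice of both groups were juveniles when the study began. For 3 weeks the CUMS mice met changing combinations of tilted, empty or damp cages, restraint, white noise, strobe light and disturbed day length. Social isolation was also among their stresses but was not one of those picked at random. Control mice lived without all of these stresses. Tissue came only from stressed mice whose sucrose preference, Y-maze and forced swimming values had all changed, so the CUMS group stands for the mice that responded and not for all stressed mice. Mature miRNAs were counted without mismatches to miRBase precursors, and values are normalized counts, that is reads divided by the size factor of the library.

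In placental mammals this cluster is expressed from the maternal chromosome, as part of the Dlk1-Dio3 imprinted domain, and its miRNAs are most abundant in brain. The hairpins are cut from long noncoding transcripts, and each can give a 5p and a 3p mature miRNA that pair with target mRNAs through the seed, the bases from position 2 to position 8. In neurons the cluster is known for induction by activity through Mef2, for the control of dendrites and spines by miR-134, and for adenosine-to-inosine editing of several members.

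The sequences of 66 of the 70 members were found in the RefSeq table of build GRCm38.p6. Those of the most abundant members are given first, in falling order of level, since they carry nearly all the reads, and capitals mark the seed. The 10 most abundant members also include miR-485-5p.
miR-411-5p: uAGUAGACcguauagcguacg
miR-410-3p: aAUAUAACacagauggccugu
miR-541-5p: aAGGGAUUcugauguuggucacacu
miR-381-3p: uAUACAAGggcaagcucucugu
miR-409-3p: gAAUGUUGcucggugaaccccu
miR-300-3p: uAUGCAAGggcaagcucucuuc
miR-409-5p: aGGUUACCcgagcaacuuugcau
miR-668-3p: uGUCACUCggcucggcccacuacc
miR-666-5p: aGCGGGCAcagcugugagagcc
No seed is shared within this group. miR-381-3p and miR-300-3p come nearest, with 3 different bases over their 22 positions counted from the 5′ end (A4G, G21U and U22C, miR-381-3p first), and the first of these lies in the seed.

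Among the 66 sequences there were 61 different seeds. The 5 seeds that occur more than once each join a pair of members, and 0 other mature miRNAs of the RefSeq table had any of these 5 seeds. The pairs are shown because a seed match to one member of a pair is also one to the other. Capitals mark the seed.
miR-411-3p: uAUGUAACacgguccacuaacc
miR-379-3p: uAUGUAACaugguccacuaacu
miR-379-5p: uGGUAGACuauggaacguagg
miR-1193-5p: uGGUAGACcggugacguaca
miR-376b-5p: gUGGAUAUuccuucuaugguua
miR-376c-5p: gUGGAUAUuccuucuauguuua
miR-410-5p: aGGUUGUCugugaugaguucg
miR-494-5p: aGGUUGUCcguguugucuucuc
miR-299a-3p: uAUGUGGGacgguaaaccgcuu
miR-299b-3p: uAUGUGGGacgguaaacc
The pair of miR-411-3p and miR-379-3p differs at 2 bases (C10U and C22U), and miR-376b-5p and miR-376c-5p at 1 base (G19U). The 18 bases of miR-299b-3p are wholly contained in miR-299a-3p. Reads that stop short of a differing base cannot be given to 1 member of such a pair, so the levels of miR-376c-5p and miR-299b-3p, the lower of their pairs, are uncertain. The seed of the abundant miR-411-5p differs from that of miR-379-5p, although their hairpins are neighbours.

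Members can share letters further along whether or not they share a seed. The run GGUCCAC was found in 5 of the 66 members and in 0 of the 1613 other mature miRNAs, read on the strand of the mature miRNA alone. It is shown in capitals.
miR-380-3p: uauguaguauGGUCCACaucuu
miR-411-3p: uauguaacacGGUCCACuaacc
miR-379-3p: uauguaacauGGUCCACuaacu
miR-758-3p: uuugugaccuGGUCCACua
miR-412-3p: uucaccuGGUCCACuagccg
All of these are 3p arms, and in 4 of them the run begins at position 11, outside the seed. Of these members, miR-411-3p and miR-379-3p also share their seed and are the pair shown above. A second run, GGUUG, was in 9 members, 7 of them 5p arms, and in 2.67% of the other mature miRNAs. These letters, with ACACGG and AUGGUC, were searched after the sequences had been seen, and they overlap in some members, as ACACGG and GGUCCAC do in miR-411-3p. A match describes the sequence alone.

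All 37 hairpins could be placed on chromosome 12 of GRCm38.p6, between 109709060 and 109747960, and 36 are on the plus strand. The exception is miR-299b, which lies opposite miR-299a on the minus strand. From the start of miR-379 to the end of miR-410 the cluster spans 34.7 kb. GENCODE M21 annotates Mirg from 109729764 to 109749460, so only the distal 13 hairpins are inside that gene, 9 in exons and 4 in introns, and 24 upstream hairpins have no annotated host on their strand. The hairpins inside Mirg gave 55.2% of the members' reads and the upstream hairpins gave 44.8%.

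On known miRNAs, 10533646 reads were counted for control library a, 10783592 for control library b, 10427625 for CUMS library a and 9589323 for CUMS library b. Libraries of a group carry a letter and no replicate number, because the deposited columns hold group means alone. The neuronal miR-124-3p was high in all 4 libraries, with 23152 to 33239 reads, and the liver miRNA miR-122-5p had 0 or 1 read. Control library b stood apart in the 7 miRNAs of the list for epithelia, whose summed normalized count was 1004740 in that library against 4047 to 7329 in the others. Most of that sum was miR-182-5p alone (961759). The rest of the list ran from 2849 (miR-200a-3p) to 21753 (miR-183-5p) in control library b. All 7 together took 9.32% of its reads, and the summed share of the members is given below with and without them. Of the other marker lists, 5 had lower summed normalized counts in each CUMS library than in each control library. The ranges were 16942 to 22015 in the controls and 12627 to 15959 under CUMS for choroid plexus, 1810 to 1868 and 1589 to 1735 for endothelium, 7693 to 8173 and 6011 to 7154 for oligodendrocytes, 226 to 348 and 194 to 197 for muscle, and 69.0 to 74.3 and 44.3 to 60.4 for leukocytes. The endothelium list is miR-126a-3p alone. Both oligodendrocyte miRNAs were lower in each CUMS library, as were miR-204-5p (choroid plexus), miR-133a-3p (muscle) and miR-142a-3p (leukocytes). The groups overlapped for miR-211-5p, miR-1a-3p and miR-223-3p, the less abundant miRNAs of those last lists. Of all 719 miRNAs tested, 17.1% were lower in each CUMS library. The groups overlapped for the neuron and brain, mural cell and red cell lists.

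The cluster gave a small and uneven part of the miRNA reads in this cortex. Members held 2.93% and 2.78% of the reads on known miRNAs in control libraries and 2.99% and 2.76% in CUMS libraries. The groups overlapped, with 2.85% ± 0.107 (SD, n = 2) in control and 2.88% ± 0.164 (SD, n = 2) in CUMS, and an exact two-sided permutation test gave p = 1, where 0.333 is the smallest value that 2 libraries against 2 allow. Without the 7 epithelial miRNAs in the total, the shares were 2.93% and 3.06% in control libraries, against 2.99% and 2.76% under CUMS (exact permutation p = 0.667). On the scale of normalized counts, which does not rest on the total, the members summed to 301544 and 299161 in control libraries, against 293682 and 280405 under CUMS. Both CUMS sums were lower there, with a ratio of 0.956 and the smallest exact permutation p of 0.333. In bulk tissue, fewer cells of a type and less miRNA per cell cannot be told apart.

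The mean level of single members ran from 0.235 normalized counts for miR-496a-5p to 61415 for miR-411-5p. Reads were found in all 4 libraries for 63 of the 70 members. The mean normalized count over the libraries was at least 10000 for 8 members, from 1000 to 10000 for 8, from 100 to 1000 for 21, from 10 to 100 for 18 and under 10 for 15. The median member had a mean of 104, against 9.92 for all 1038 miRNAs. The 5 most abundant members gave 76.5% of the members' reads, the first 8 gave 90.3% and the first 10 gave 93.4%.

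**Figure D1:**
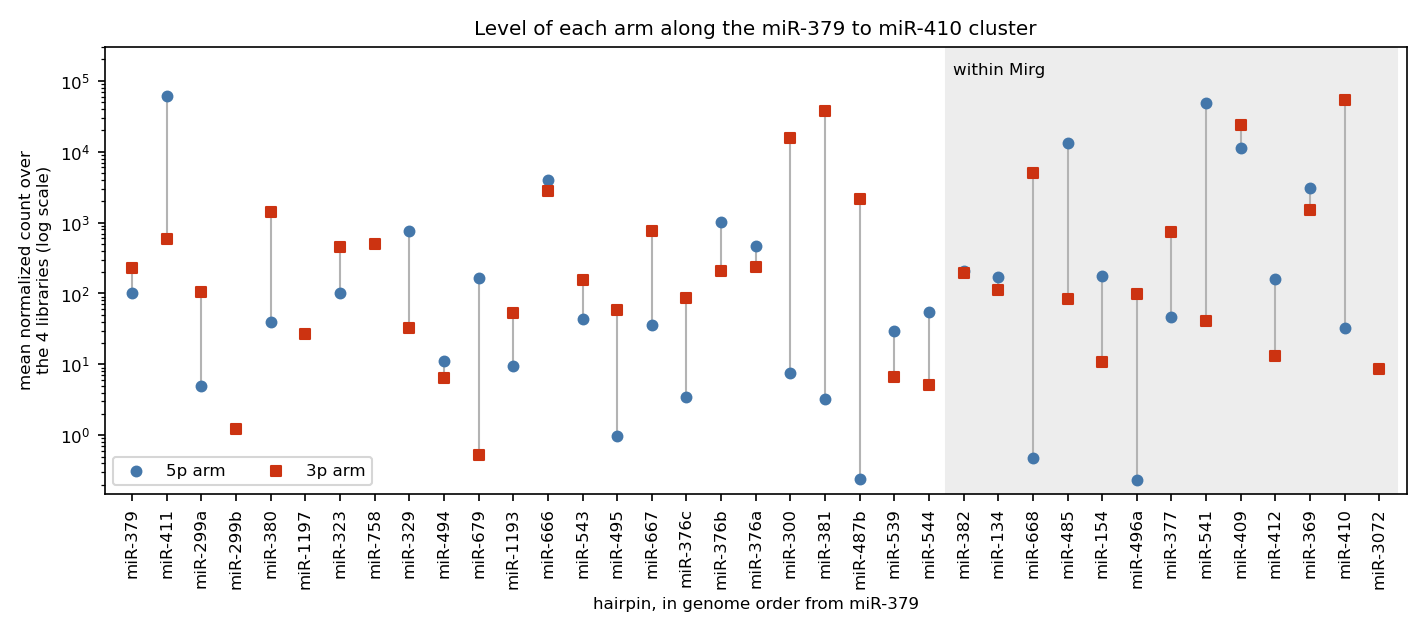
Mean normalized count over the 4 libraries (log scale) of the 5p arm (circles) and the 3p arm (squares) of each hairpin, in genome order from miR-379; grey lines join the arms of a hairpin and the shaded hairpins lie within Mirg. miR-411-5p (mean 61415) stands beside miR-379-5p (mean 103), and abundant and rare products stand side by side along the cluster.

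The most abundant member was miR-411-5p, which ranked 27 among all miRNAs and is known to be edited in its seed in brain. Its normalized counts were 62371 and 59250 in control libraries, against 64767 and 59273 under CUMS, so that the groups overlapped, and the log2 change of CUMS minus control was 0.03 (SE 0.14). Its neighbour miR-379-5p, whose hairpin starts 1.11 kb upstream, had 117, 70.0, 89.4 and 135 in the same order of libraries, and its mean was 597-fold lower. Here, too, the groups overlapped.

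The second member was miR-410-3p, with 56601 and 57119 in control libraries, against 53309 and 45881 under CUMS. Each CUMS library was under each control library, with a log2 change of -0.20 (SE 0.14, unadjusted p = 0.204 in limma). miR-541-5p, which is known to restrain neurite growth, had 48127 and 48709 in control libraries, against 42771 and 54274 under CUMS. For this miRNA the CUMS libraries held both the lowest and the highest value, and the log2 change was -0.01 (SE 0.16).

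miR-381-3p, known for a part in activity-dependent dendrite outgrowth, had 37239 and 40170 in control libraries, against 40072 and 33014 under CUMS. Its near relative in sequence, miR-300-3p, had 16265 and 15436 in control libraries, against 16225 and 14706 under CUMS. The groups overlapped for both, with log2 changes of -0.09 (SE 0.15) and -0.04 (SE 0.14). miR-485-5p, which is known to lower presynaptic proteins when activity is high, had 13537 and 13773 in control libraries, against 13505 and 12613 under CUMS. CUMS library a was just under the lower control library, so the groups did not overlap, but the log2 change was only -0.07 (SE 0.13).

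Both arms of miR-409 were among the 10 most abundant, and their groups lay in opposite order. miR-409-3p had 26401 and 24227 in control libraries, against 22129 and 23603 under CUMS, where the CUMS values were the lower ones (log2 change -0.15, SE 0.14). miR-409-5p had 10415 and 11265 in control libraries, against 11768 and 12114 under CUMS, where the CUMS values were the higher ones (log2 change 0.14, SE 0.14). In limma the unadjusted p was 0.322 for miR-409-3p and 0.338 for miR-409-5p, so neither passed. Over the 10 most abundant members the log2 changes ran from -0.24 to 0.14, with SE of 0.13 to 0.19 and unadjusted limma p of 0.168 to 0.966.

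Below the 10 most abundant members, 6 more had a mean of at least 1000 normalized counts. The arms of miR-369 had 3384 and 3078 (5p) and 1758 and 1510 (3p) in the control libraries, and 2867 and 2882 (5p) and 1461 and 1385 (3p) in the CUMS libraries. Both arms were thus lower in each CUMS library, with log2 changes of -0.17 (SE 0.15) and -0.20 (SE 0.16) that limma did not call. miR-487b-3p had 2252 and 2255 in the controls, while CUMS library a had 2386 and CUMS library b had 1760. miR-376b-5p had 1122 and 992 in the controls, while the CUMS libraries had 946 and 992. For these last 2 members the groups overlapped, with log2 changes of -0.14 (SE 0.19) and -0.12 (SE 0.17). In miR-376b-5p the overlap was slight, with 991.7 in CUMS library b and 991.6 in control library b.

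Among the 21 members with a mean from 100 to 1000, the higher values were spread over both groups. miR-667-3p had 616 and 791 in the controls, while CUMS library a had 1066, the highest of all, and CUMS library b had 600, the lowest. For miR-377-3p the controls had 655 and 881.6, while the CUMS values of 785 and 624 lay within and under that range. miR-329-5p, with 749 and 727 in the controls and 747 and 798 in the CUMS libraries, varied least of these. Both arms of miR-382 followed each other, since the 5p arm had 253, 189, 159 and 217 and the 3p arm had 245, 184, 139 and 213 in control libraries a and b and CUMS libraries a and b. The lowest value of both arms was that of CUMS library a and the highest that of control library a, and the log2 changes were -0.23 (SE 0.27) and -0.30 (SE 0.29).

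Each miRNA was tested with limma on log2(normalized count + 1), which understates the change of low miRNAs. The test covered 719 miRNAs, those that reached 5 reads in 1 library or more, and 64 members were among them. The other 6 members, miR-299b-3p, miR-495-5p, miR-679-3p, miR-668-5p, miR-487b-5p and miR-496a-5p, had no library with 5 reads. Of these, miR-299b-3p had 1 and 4 reads in control and 0 in both CUMS libraries, and a count of 0 allows up to 3 reads.

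At an adjusted p under 0.05 no member was called by limma, 0 of the 64, and none of all 719 miRNAs was (0%). The lowest adjusted p of a member was 0.835 in limma, 0.849 in edgeR and 0.573 in DESeq2, the last 2 of which were run on the recovered reads and also called 0 members. At an unadjusted p under 0.05, limma marked 3 members, against 3.89% of all miRNAs tested. edgeR marked 3 members (4.17% of all) and DESeq2 marked 2 (3.34% of all), so that the members' share was near the background in each.

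The member with the smallest unadjusted p in limma and in edgeR was miR-3072-3p, whose hairpin lies beyond miR-410 but within Mirg. In DESeq2 it was miR-758-3p (unadjusted p = 0.00986), where miR-3072-3p had 0.0464. miR-3072-3p had 3 and 2 reads in control libraries, against 15 and 15 under CUMS. Both CUMS libraries were thus above both control libraries, and the ratio of reads after normalization was 6.05, with an exact 95% interval of 2.32 to 19.97 that covers counting error alone. The log2 change was 2.22 (SE 0.61, unadjusted p = 0.0101 and adjusted p = 0.835 in limma).
miR-3072-3p: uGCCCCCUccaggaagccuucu
Its seed, in capitals, is one that no other sequenced member has. At 8.74 normalized counts on average, miR-3072-3p gave 0.00296% of the members' reads.

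miR-758-3p was the member with the clearest difference at a substantial level. It is known to repress the cholesterol transporter Abca1. The normalized counts were 579 and 623 in control libraries, against 428 and 356 under CUMS, and they came from 592, 623, 455 and 336 reads. Each CUMS library was under each control library, with a control mean 1.53-fold above the CUMS mean and a log2 change of -0.62 (SE 0.19, unadjusted p = 0.0168 and adjusted p = 0.835 in limma). Its hairpin lies 3.75 kb from the start of miR-379, between miR-323 and miR-329, and it is 1 of the 5 members with GGUCCAC shown above. The other 4 members with these letters had log2 changes of -0.25 (miR-380-3p), 0.08 (miR-411-3p), -0.00128 (miR-379-3p) and 0.16 (miR-412-3p).

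The third of these members, miR-539-3p, had 13 and 9 reads in control libraries, against 2 and 3 under CUMS. The groups did not overlap, and the log2 change was -1.75 (SE 0.68, unadjusted p = 0.0391 in limma). In reads the control sum was 4.36-fold higher after normalization, with an exact 95% interval of 1.61 to 14.7. The 5p arm of the same hairpin had 34.2 and 27.0 normalized counts in control and 27.3 and 28.6 in CUMS, which overlapped.

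**Figure D2:**
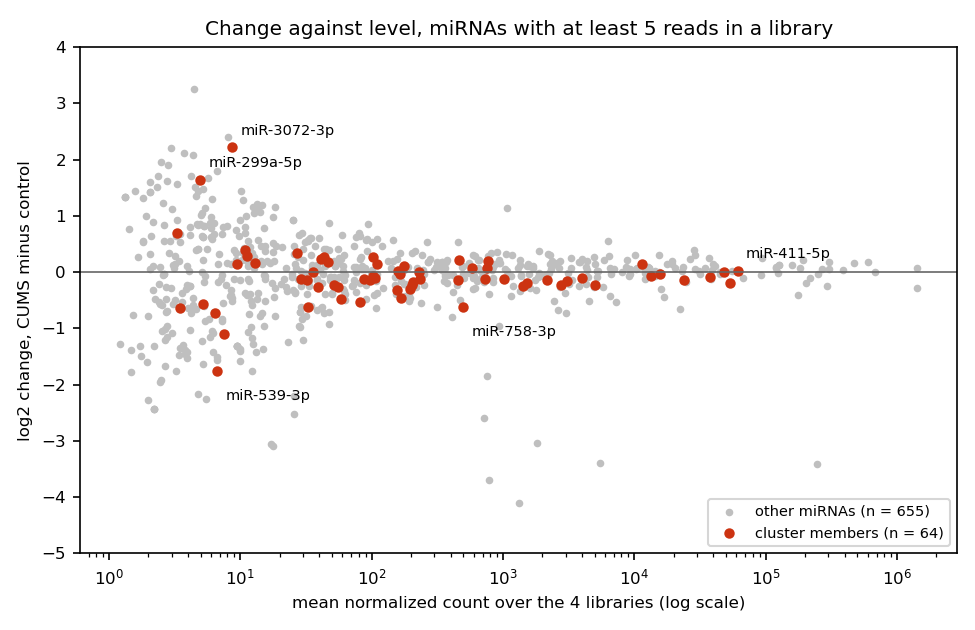
Log2 change of CUMS minus control from limma against the mean normalized count (log scale) for the 719 miRNAs tested; cluster members are red. Members spread at low counts as other miRNAs do, with miR-3072-3p at 2.22 and miR-539-3p at -1.75, and lie near 0 at high counts.

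By size alone, the mean of 1 group or both reached 5 for 62 members, and 7 of them differed more than 1.5-fold between the deposited group means. Of all 628 miRNAs with such a mean, 25.6% passed this fold, 11.9% higher and 13.7% lower in CUMS, and the members' count is to be read beside these shares. Higher in CUMS were 2 members, miR-3072-3p and miR-299a-5p, the latter with 1 and 3 reads in control libraries, against 10 and 6 under CUMS (ratio 4.03, exact 95% counting interval 1.301 to 16.6). Lower were 5 members, miR-758-3p, miR-539-3p, miR-300-5p, miR-494-3p and miR-544-3p. All but miR-758-3p had means under 20 in both groups. The exact 95% counting interval of the ratio included equal levels for miR-300-5p (21 control and 10 CUMS reads), miR-494-3p (17 and 9 reads) and miR-544-3p (13 and 8 reads). The members just short of the threshold were miR-410-5p, with a control mean 1.48-fold above the CUMS mean, miR-154-3p, 1.47-fold higher in CUMS, and miR-485-3p, 1.43-fold lower.

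Slightly lower values under CUMS were common among the better measured members. Of the 64 members tested, 40 had a lower mean in CUMS, where 47.7% of all tested miRNAs did. Of the 43 members with a mean of at least 50, the mean was lower in 31, against 45.1% of the 359 miRNAs at that level. Their median log2 change was -0.12, beside 0.02 for all miRNAs of that level, and the middle 50% of the members ran from -0.23 to -0.00418. On CPM, reads scaled to the total of the library, in place of size factors, 27 of the 43 were lower, and with TMM factors 35 were. The share of 45.1% holds for size factors alone, so the CPM and TMM counts have no background beside them. No test of the list was made, and the members come from the same libraries and 1 cluster, so they are not replicates. The lists for choroid plexus, endothelium, oligodendrocytes, muscle and leukocytes were also lower in each CUMS library, with the ranges given above, and their part in the lower values of the members was not tested.

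The separation between groups was less regular than the direction. Each CUMS library was under each control library for 13 of the 43 members, against 15.6% of all miRNAs at that level, and above for 1, miR-409-5p, against 16.7%. On CPM these counts were 4 (miR-758-3p, miR-134-5p, miR-485-3p and miR-495-3p) and 3 (miR-409-5p, miR-329-5p and miR-411-3p), so the separation of members depends on the scaling. The epithelial miRNAs are part of the total of control library b on that scale. No share of all miRNAs is given on CPM, so these CPM counts have no background beside them. With size factors, 19 of all 64 tested members were below (17.1% of all miRNAs were) and 4 above (16.7%). The median deviation of the 43 members from their own mean over the libraries was 0.14 and 0.01 (log2) in the control libraries a and b and -0.00377 and -0.14 in CUMS libraries a and b. CUMS library b was the lowest of the 4 for 22 of the 43 members and control library a the highest for 18, while CUMS library a and control library b lay near each other. Of the 43, the mean was lower in 29 without control library a, in 31 without control library b, in 32 without CUMS library a and in 27 without CUMS library b. No share of all miRNAs is given for these settings. In the 316 other miRNAs of that level the median deviation was between -0.01 and 0.04 in all libraries. Among them, the 22 other miRNAs of the Dlk1-Dio3 domain had median deviations of 0.03, -0.04, 0.08 and -0.08, with control library a first and CUMS library b last, so that their lowest library was also CUMS library b.

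Among members with a mean of at least 50 whose CUMS libraries were both below the controls, the 8 with the largest ratio of group means were miR-758-3p, miR-485-3p, miR-495-3p, miR-134-5p, miR-543-3p, miR-380-3p, miR-668-3p and miR-666-3p. The sequences of those not yet shown are given with the seed in capitals.
miR-134-5p: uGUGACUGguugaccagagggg
miR-485-3p: aGUCAUACacggcucuccucuc
miR-495-3p: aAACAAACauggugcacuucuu
miR-543-3p: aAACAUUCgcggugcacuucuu
miR-666-3p: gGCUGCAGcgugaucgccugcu
miR-543-3p and miR-495-3p differ at 4 bases (U6A, U7A, G9A and C10U), and 2 of these are in the seed.

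miR-134-5p, which limits spine size through the kinase Limk1, had normalized counts of 202 and 189 in control libraries, against 137 and 147 under CUMS. The groups were apart, with a log2 change of -0.46 (SE 0.22, unadjusted p = 0.0766 in limma). In edgeR its unadjusted p was 0.0327, with an adjusted p of 0.849. The other arm of the hairpin, miR-134-3p, had 105 and 103 in control libraries, against 135 and 98.5 under CUMS, which overlapped.

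miR-485-3p had 95.9 and 98.0 in control libraries, against 80.0 and 55.1 under CUMS (log2 change -0.54, SE 0.29). miR-495-3p, known to target Bdnf, had 75.3 and 62.0 in control libraries, against 50.8 and 46.6 under CUMS (log2 change -0.48, SE 0.29). miR-543-3p, known to act on N-cadherin in neural progenitors, had 199 and 153 in control libraries, against 140 and 138 under CUMS (log2 change -0.32, SE 0.24). In each of these the CUMS libraries were the lower ones, and the unadjusted limma p was between 0.113 and 0.223.

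The remaining 3 were more abundant and differed less. miR-380-3p had 1600 and 1478 in control libraries, against 1458 and 1143 under CUMS (log2 change -0.25, SE 0.18). miR-668-3p had 5708 and 5254 in control libraries, against 5001 and 4314 under CUMS (log2 change -0.24, SE 0.15). miR-666-3p had 3066 and 2887 in control libraries, against 2757 and 2315 under CUMS (log2 change -0.24, SE 0.16). CUMS library b was the lowest of the 4 for all 3, and none of these changes passed the test.

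**Figure D3:**
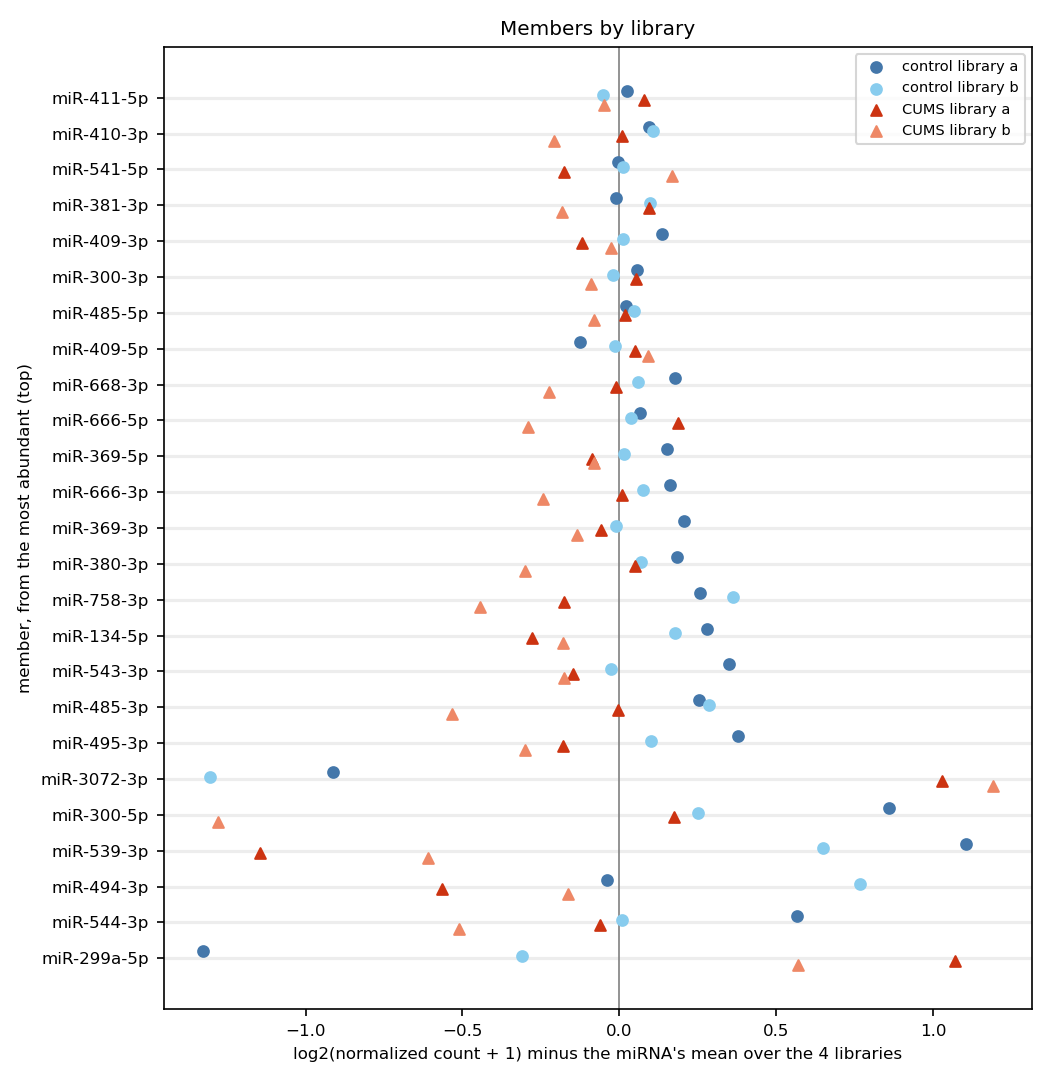
Log2(normalized count + 1) of each library minus the mean over the 4 libraries, for the 10 most abundant members, those with a mean of at least 50 whose groups do not overlap, and those past the 1.5-fold threshold; circles are control and triangles CUMS libraries. CUMS library b lies farthest to the left for many of the abundant members, and the spread widens toward the rare members at the bottom.

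The members known for acting on dendrites and synapses were taken as a list of 6, miR-134-5p, miR-329-3p, miR-381-3p, miR-485-5p, miR-495-3p and miR-541-5p. The deposited mean was lower in CUMS for 5 of the 6, and for miR-541-5p it was 48418 in control and 48522 in CUMS. In 3 of them each CUMS library was under each control library, against 17.1% of all tested miRNAs. At an unadjusted p under 0.05 limma marked 0 of the 6, against 3.89% of all, and the median log2 change was -0.11, beside -0.12 for all 64 members tested. The list covers very different levels, from a mean of 32.2 for miR-329-3p to 48470 for miR-541-5p.

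The members known to be edited in brain were a list of 8, miR-376a-3p, miR-376b-3p, miR-376c-3p, miR-379-5p, miR-381-3p, miR-411-5p, miR-487b-3p and miR-539-5p, with means from 29.3 to 61415. Of these, 6 had a lower and 2 a higher mean in CUMS, in 0 of them did the CUMS libraries both fall under the controls (17.1% of all tested miRNAs), and 0 had an unadjusted limma p under 0.05 (3.89% of all). Their median log2 change was -0.12. Counting without mismatches leaves edited reads out of the table, and the part of editing in these levels was not tested.

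The hairpins inside Mirg and those upstream of it were also set side by side. Among members with a mean of at least 50, 12 of 17 inside Mirg had a lower mean in CUMS, with a median log2 change of -0.15, and 19 of 26 upstream did, with a median of -0.11. The other miRNAs of the Dlk1-Dio3 domain, which are no members, gave 26 tested miRNAs, of which 6 had a lower mean, with a median log2 change of 0.09. The difference between these lists was not tested.

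Which arm of a hairpin gave more counted reads differed widely between hairpins and little between libraries. Of the 28 hairpins with at least 50 reads over both arms in each library, the 3p arm had more reads in 15 and the 5p arm in 13, and for all 28 the same arm led in all 4 libraries. The arms differed over 10-fold in 18 hairpins, over 100-fold in 10 and under 2-fold in 5. miR-381 gave 99.99% of its reads from the 3p arm (151975 of the reads against 13), and miR-541 gave 99.9% from the 5p arm (194580 against 166). miR-382 was nearly even, with 822 reads from 5p and 783 from 3p, 51.2% from 5p.

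Some adjacent hairpins gave most reads from opposite arms. miR-379 gave 69.4% of its reads from the 3p arm, whereas miR-411 next to it gave 99.1% from the 5p arm. Likewise, miR-668 gave 99.99% from 3p and its neighbour miR-485 gave 99.4% from 5p. The miR-376 hairpins differed among themselves, since miR-376b and miR-376a gave 83.0% and 66.4% from the 5p arm and miR-376c gave 96.2% from the 3p arm. miR-376b-5p and miR-376c-5p differ at 1 base (G19U), so the 5p reads of miR-376c, and with them its share, are uncertain. miR-329 gave 95.9% from the 5p arm, so that miR-329-3p, the arm on the list of dendrite miRNAs, had only 26.5 to 36.0 normalized counts. Counting without mismatches leaves edited reads out of these shares. Of the edited list, miR-376a-3p, miR-376b-3p and miR-379-5p were the minor arms of their hairpins, and the others were the leading arms. The part of editing in the arm balance was not tested.

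**Figure D4:**
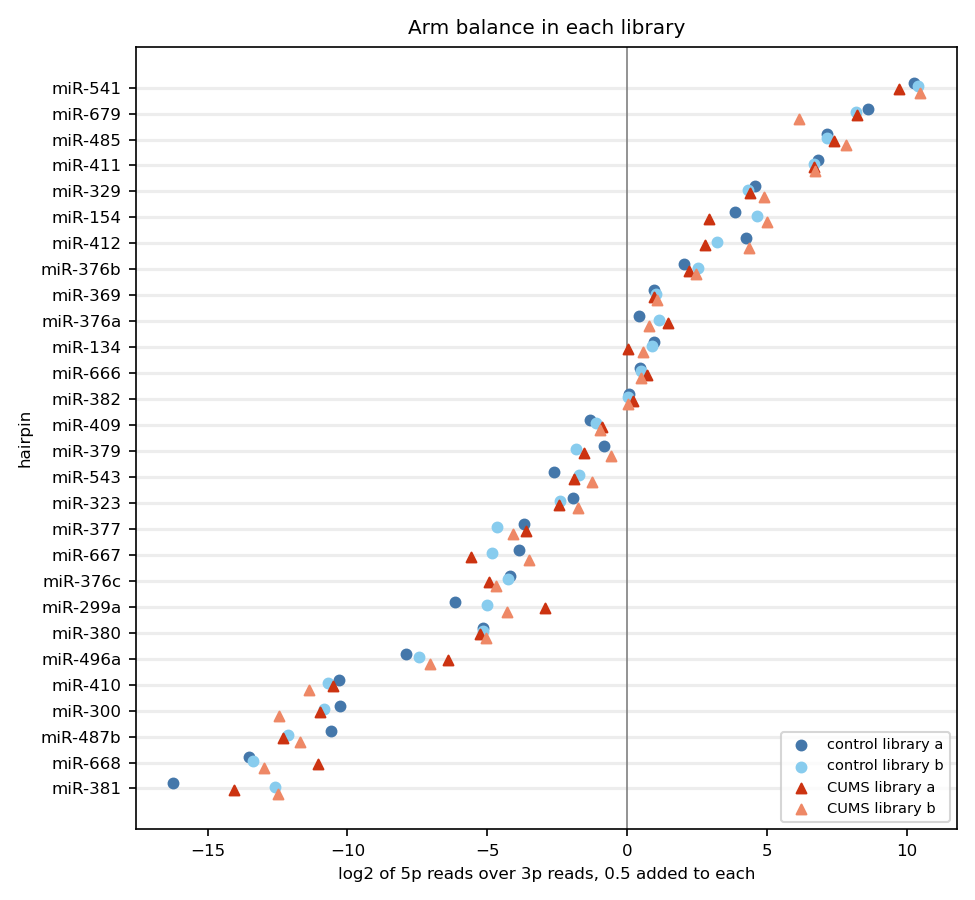
Log2 of 5p reads over 3p reads, with 0.5 added to each, in each library for the 28 hairpins with at least 50 reads over both arms in every library; circles are control and triangles CUMS libraries. The hairpins run from miR-541 (median 10.3) to miR-381 (median -13.3), and the 4 libraries of a hairpin fall on the same side of 0.

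The arm balance showed no common direction under CUMS. The log2 ratio of 5p to 3p reads was above both control values in both CUMS libraries for 5 hairpins, below for 3 and overlapping for 20, and its median change over the 28 was 0.06. The same count was not made for hairpins outside the cluster, so these counts have no background beside them. The median range over the 4 libraries was 1.02 (log2), and it was widest where 1 arm had few reads. In miR-369, where both arms were well covered, the ratio was 0.94 and 1.03 in control libraries, against 0.97 and 1.06 under CUMS. For miR-409 it was -1.34 and -1.10 in control libraries, against -0.91 and -0.96 under CUMS, a difference of 0.29 toward the 5p arm. For miR-134 it was 0.95 and 0.87 in control libraries, against 0.03 and 0.58 under CUMS, a difference of -0.61. With 2 libraries a group, the exact permutation test cannot give less than 0.333 for any of these.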

How the data were processed

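Per the study's methods, total RNA was isolated mouse by mouse, and RNA of 18 to 30 nt was taken from it for sequencing. Neither the labels nor the methods state whether RNA of several mice was pooled in a library. The authors removed adaptor and low-quality reads, matched reads to miRBase mouse precursors without mismatch and compared groups with DESeq. The submitters' processing notes name Bowtie, with no version. The signal values the authors deposited are the mean normalized counts of control and CUMS. The deposited folds and p-values of the authors' own comparison were not used. Columns were assigned to groups from the headings of the study's table of values.

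The reads behind each mean were solved for as sums of 2 whole numbers times 2 steps. All 1038 values of each group came out whole (100%, relative residual under 1e-09), with 2 ambiguous values outside the members. Size factors recomputed over 650 miRNAs were 1.02, 1.00, 1.06 and 0.944, equal to those in the steps. Libraries were treated as unnumbered replicates, and p-values measure the spread between these libraries. A miRNA with few reads has a large counting error.

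limma 3.58.1 was fitted on log2(normalized count + 1) over miRNAs that reached 5 reads in a library, with Benjamini-Hochberg adjustment over all 719. edgeR 4.0.16 (quasi-likelihood test, TMM), DESeq2 1.42.0, other pseudocounts, filters and scalings, and each library left out were alternatives. Fits and the recovery were tested on simulated data. Exact tests were two-sided. R 4.3.3 and Python 3.11.15 with numpy 2.4.6, pandas 2.3.3, scipy 1.17.1 and matplotlib 3.10.9 were used. Sequences and hairpin positions came from RefSeq (GRCm38.p6), and Mirg from GENCODE M21.

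The members and lists were chosen with earlier results of these data known. Named were the 10 most abundant members, members past the fold or an unadjusted p under 0.05, up to 8 in each direction whose groups did not overlap and whose mean reached 50 in a group, and the fixed lists. Other members were named after their values were seen.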

Additional observations from a re-analysis of the deposited data

How the results depend on the processing

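No member was called at an adjusted p under 0.05 under any of the 12 alternatives to the limma fit. The 3 members at an unadjusted p under 0.05 became 1, miR-758-3p, when at least 10 reads were required in every library, and 1 to 3 when 1 library was left out. Only miR-3072-3p remained without control library a and without control library b. The 7 members past a fold of 1.5 became 1 at a minimum mean of 50, 13 with no minimum, and 8 to 13 when 1 library was left out (11 without control library a, 8 without control library b, 13 without CUMS library a and 11 without CUMS library b, of which 6, 5, 7 and 4 were among the 7). With 1 library left out, 12.4% to 17.4% of all miRNAs passed the fold as higher and 13.7% to 15.99% as lower. No such share is given at a minimum mean of 50 or with no minimum, so those counts have no background beside them. The ratio of the summed share, CUMS over control, was 1.01, and it was 1.07 without the 10 most abundant miRNAs, 0.956 as a sum of normalized counts, 0.961 without the 7 epithelial miRNAs (chosen after seeing the data) and 0.968 to 1.05 with 1 library left out. Counts of members with a mean of at least 50 under other scalings were also added after seeing the data. Each CUMS library was under each control library for 13 members with size factors, 14 with TMM and 4 on CPM, and above for 1, 1 and 3. The mean was lower in 27 to 32 of the 43 when 1 library was left out, and the median log2 change of all tested members was between -0.21 (without CUMS library a) and -0.04 (CPM). The counts with TMM, on CPM and with 1 library left out have no share of all miRNAs beside them. The log2 change kept 1 sign over all alternatives for 29 of the 64 members tested. No paired analysis was possible because the deposited means carry no replicate numbers. With 2 libraries a group, only large and regular changes can pass an adjusted test, and members with under 10 normalized counts rest on few reads.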
